A study of Rattus norvegicus with 16 samples.

Results

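A set of 10 genes of the stress and social neuropeptide systems was taken by name from a table of RNA-seq read counts of rat brain: the corticotropin-releasing factor (CRF) receptors Crhr1 and Crhr2 with the CRF binding protein Crhbp, the PACAP precursor Adcyap1 with the PACAP receptor Adcyap1r1, the neuropeptide Y (NPY) receptors Npy1r, Npy2r and Npy5r, the oxytocin receptor Oxtr and the vasopressin V1a receptor Avpr1a. All 10 were among the 33294 genes of the table. The tissue was labelled as central amygdala, taken from adult rats that had been exposed to fentanyl or saline in the perinatal period. Fentanyl-exposed offspring gave 6 male and 2 female libraries, and saline-exposed offspring also gave 6 male and 2 female libraries. Each library is a separate sample in the labels, and whether animals were pooled is not given in the sources used here. According to the labels, tissue of all 4 groups was collected 1 day after a last session abbreviated IVSA, so no group lacked that experience. Strain, litter and the way of perinatal dosing were not given in the sources used here, and litter mates could therefore not be told from unrelated animals. The p-values therefore cover variation among these libraries, part of which may be technical.

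CRF and PACAP are peptides released during stress, and their receptors are G protein-coupled receptors that mainly raise cyclic AMP. NPY acts in the amygdala on G protein-coupled receptors that lower cyclic AMP, and it is known for opposing the behavioural effects of CRF. The oxytocin and V1a receptors signal mainly through phospholipase C, and in the central amygdala they are known for marking neurons that respond to oxytocin and vasopressin.

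Total counts ran from 12879701 to 22426428 per library. All 10 markers of central amygdala neurons passed the filter on low counts, with a summed level of 526 to 1439 CPM (a gene's reads relative to the TMM-scaled total of its library). Markers of striatal spiny neurons, a neighbouring and related population, summed to 3346 to 17168 CPM. Several of these genes are also expressed by central amygdala neurons. Of the central amygdala markers, Meis2, Pdyn and Tac1 had the highest medians outside saline male replicate 3 (262, 257 and 141 CPM). Both sums were highest in fentanyl female replicate 2 (1439 and 17168 CPM), so they do not tell these populations apart. After fentanyl all 17 striatal markers lay above 0 on the log2 scale (median log2 fold change 0.53, none past the threshold), alongside every exposure value below. An unadjusted p below 0.05 in edgeR was found for 7 of the 17, against 7.27% of all genes. Without saline male replicate 3 it was found for 4 of the 17, against 6.47% of all genes. In other lists, also with no marker past the threshold, those below 0 were all 6 glutamatergic markers tested (median -1.0, or -0.06 with 4 of 6 below 0 without saline male replicate 3), all 9 astrocyte markers (-0.15), all 8 microglia markers (-0.22) and 9 of 10 myelin markers (-0.22). Of these lists, an unadjusted p below 0.05 was found for 3 of 6 glutamatergic markers (0 without saline male replicate 3), 1 of 8 microglia markers and no astrocyte or myelin marker. Saline male replicate 3 stood apart. Its summed level of 10 markers of cortical and basolateral glutamatergic neurons was 110.7 CPM, against 5.18 to 11.3 CPM in all other libraries, and its Slc17a7 (a vesicular glutamate transporter of cortical neurons) reached 68.1 CPM against 3.33 CPM in the next library. Exposure values over both sexes that turned in direction or moved by over 1.5 times without it are given both ways. With the means of the striatal and myelin markers as covariates, the log2 fold changes of Crhr1, Crhr2, Npy2r and Oxtr over both sexes, all below 0 without covariates, were 0.26, 0.90, 0.31 and 0.84, and none passed the threshold in edgeR. In that fit 3 of 9 members had an unadjusted p below 0.05, against 8.00% of all genes, namely Crhr2 (0.00981), Oxtr (0.0159) and Npy1r (0.0346, log2 fold change 0.52).

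No receptor of the set differed between fentanyl and saline offspring past the threshold. With edgeR's quasi-likelihood test over both sexes, with sex as a term and Benjamini-Hochberg adjustment over 17856 genes at 0.05, none of the 9 members tested was called, against 14 of all genes tested (0.0784%). Adcyap1 had too few reads for the filter on low counts. At an unadjusted p below 0.05 there were also none of 9, against 7.27% of all genes, and DESeq2 and limma voom called none of the members either, each with none at an unadjusted p below 0.05. Of the 9 members, 7 had a log2 fold change below 0, against 52.3% of all genes, with a median of -0.37 against -0.01 for all genes. That count rested on saline male replicate 3, since without it 5 of 9 were below 0, against 51.2% of all genes, with a median of -0.08. With the striatal and myelin covariates 3 of 9 were below 0, against 48.1% of all genes. In none of the 9 did the 8 fentanyl libraries lie clear of the 8 saline libraries, which 0.101% of all genes did. In bulk tissue, fewer cells with a receptor and less receptor RNA per cell cannot be told apart.

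**Figure D1:**
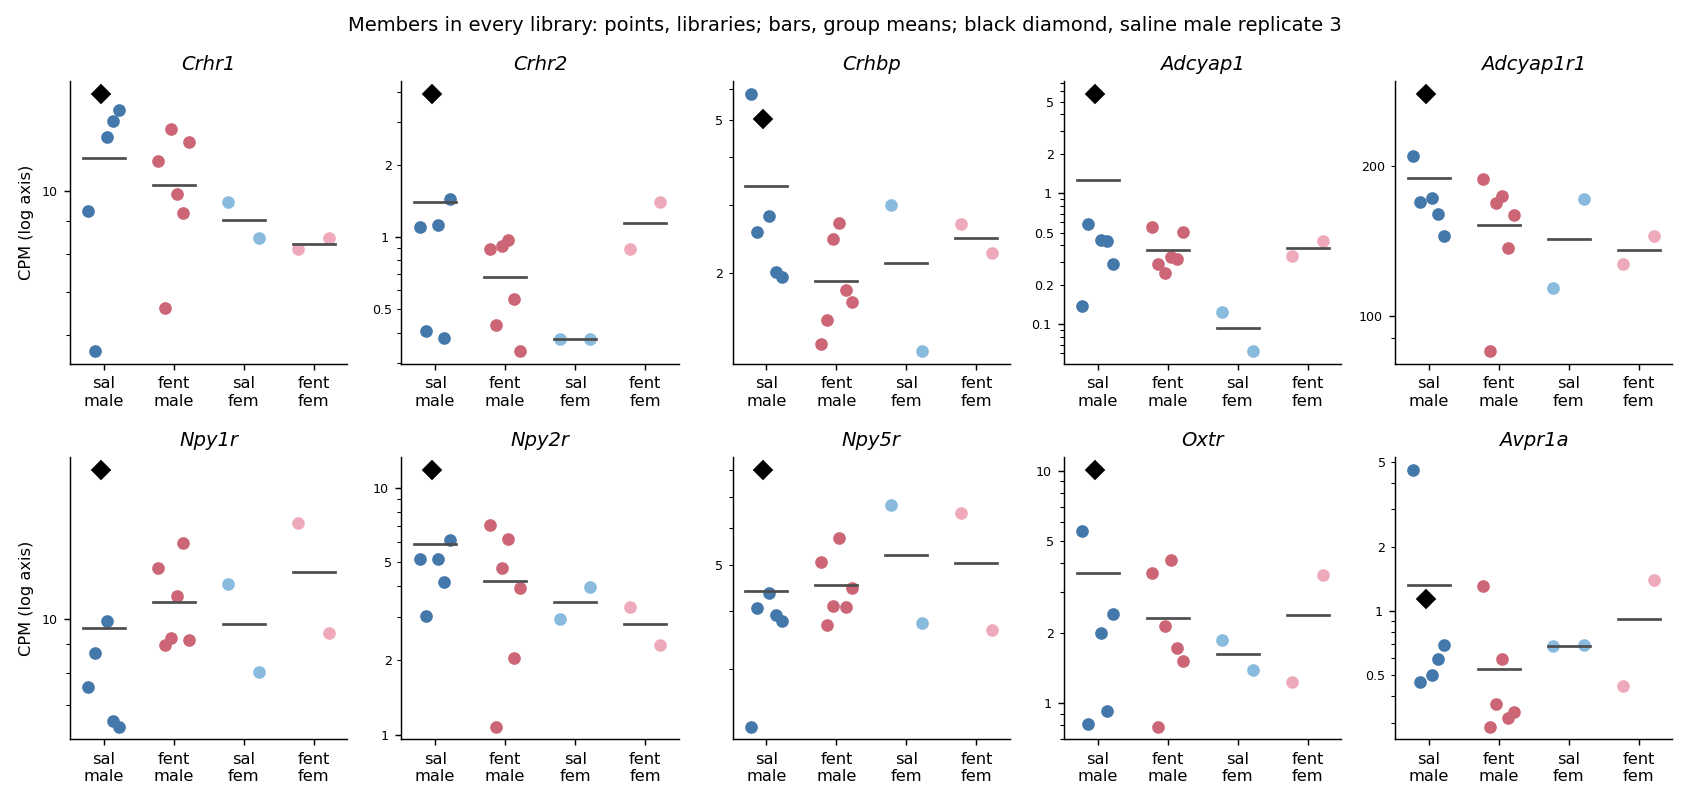
Level of each of the 10 genes in every library, in CPM on a log axis, by group, with saline male replicate 3 marked apart. Fentanyl and saline males overlap in every panel, the 2 fentanyl females lie above the 2 saline females for Crhr2 and Adcyap1, and saline male replicate 3 is the highest point in 8 of 10 panels.

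Over both sexes the largest log2 fold change among the CRF genes tested was that of Crhbp, which encodes a secreted protein that binds CRF and keeps it from its receptors. Crhbp was at 1.30, 1.74 and 2.70 CPM (lowest, median and highest) in the fentanyl males and at 1.96, 2.68 and 5.83 CPM in the saline males. The fentanyl females had 2.68 and 2.25 CPM and the saline females 2.998 and 1.26 CPM. The male medians differed, but the male groups overlapped between 1.96 and 2.70 CPM, and the female groups overlapped as well. Over both sexes its mean was 2.05 ± 0.543 CPM after fentanyl and 3.06 ± 1.58 CPM after saline (SD, n = 8 each). The log2 fold change was -0.56 ± 0.28 (SE), with a 95% interval of -1.16 to 0.04 and an adjusted p of 0.728 in edgeR.

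Crhr1, the main CRF receptor of the forebrain, was nearly level. Fentanyl males had 6.61, 10.5 and 12.5 CPM (lowest, median and highest) and saline males 5.68, 12.5 and 14.1 CPM. Fentanyl females had 8.14 and 8.48 CPM and saline females 9.62 and 8.47 CPM. These ranges overlapped almost fully in males. The log2 fold change of Crhr1 over both sexes was -0.13 ± 0.17, with a 95% interval of -0.49 to 0.22 (edgeR, adjusted p 0.870), and it was -0.08 ± 0.17 without saline male replicate 3. In linear terms the interval over all libraries runs from 0.714 to 1.16 times the saline level.

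Crhr2, a CRF-family receptor with high affinity for the urocortins, had few reads, from 6 to 94 per library. Fentanyl males had 0.336, 0.721 and 0.973 CPM (lowest, median and highest), and saline males 0.381, 1.11 and 3.94 CPM, the last in saline male replicate 3. Fentanyl females had 0.892 and 1.39 CPM, and saline females 0.375 and 0.377 CPM. The fentanyl median was below the saline median in males, where the groups overlapped. In females the fentanyl values were above the saline values without overlap. Absence of overlap, in either direction, was found in 48.8% of all genes in females. The log2 fold change of Crhr2 over both sexes was -0.47 ± 0.50 (edgeR, adjusted p 0.848), and it became 0.13 ± 0.39 (adjusted p 0.957) without saline male replicate 3.

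Adcyap1, the precursor of PACAP, was at the limit of detection in all libraries but one. It had 221 reads in the 16 libraries together, and 137 of them came from saline male replicate 3. In that library its level was 5.75 CPM, and in the other 15 libraries it was 0.0628 to 0.579 CPM. In a fit without a filter its log2 fold change was -1.23 ± 0.77 (edgeR, adjusted p 0.774), and it turned to 0.37 ± 0.38 (adjusted p 0.826) without saline male replicate 3, where the saline mean was 0.295 CPM against 0.373 CPM after fentanyl. With the library left aside, the spread of Adcyap1 between libraries (coefficient of variation 45.9%) was close to the 42.3% that counting error alone gives.

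Adcyap1r1, the PACAP receptor, was read deeply enough that counting error was small, with 1182 to 6644 reads per library. Fentanyl males had 85.0, 164 and 188 CPM (lowest, median and highest) and saline males 144, 171 and 279 CPM. Fentanyl females had 127 and 144.5 CPM and saline females 113 and 172 CPM. The lowest value was that of fentanyl male replicate 2 and the highest that of saline male replicate 3, with the groups overlapping in between. For Adcyap1r1 the log2 fold change was -0.25 ± 0.16, with a 95% interval of -0.60 to 0.09 (edgeR, adjusted p 0.778), and it was -0.14 ± 0.14 without saline male replicate 3.

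The NPY receptors did not share a direction. Npy1r, a postsynaptic NPY receptor, had 8.99, 10.1 and 13.7 CPM (lowest, median and highest) in fentanyl males and 6.39, 8.12 and 18.7 CPM in saline males. Fentanyl females had 14.9 and 9.44 CPM and saline females 11.6 and 8.03 CPM. Of the 6 saline males, 4 lay below the lowest fentanyl male, whereas saline male replicate 3 lay above every other library. The log2 fold change of Npy1r was 0.19 ± 0.21 (edgeR, adjusted p 0.850). Without saline male replicate 3 it was 0.42 ± 0.15, with an unadjusted p of 0.0111 and an adjusted p of 0.617 in edgeR. Npy1r was the 1 of 9 members with an unadjusted p below 0.05 in that setting, against 6.47% of all genes.

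Npy5r, which is transcribed from the same locus as Npy1r in the opposite direction, had 3.74, 4.29 and 5.73 CPM (lowest, median and highest) in fentanyl males and 2.26, 3.99 and 8.01 CPM in saline males. Fentanyl females had 6.47 and 3.65 CPM and saline females 6.75 and 3.77 CPM. The saline males spanned the fentanyl males, and the female groups overlapped. For Npy5r the fitted change was 0.01 ± 0.22, with a 95% interval of -0.44 to 0.47 (edgeR, adjusted p 0.993), and it was 0.20 ± 0.18 without saline male replicate 3. Npy2r, the receptor known for acting presynaptically to limit transmitter release, had 1.08, 4.31 and 7.07 CPM (lowest, median and highest) in fentanyl males and 3.01, 5.13 and 11.8 CPM in saline males. Fentanyl females had 3.29 and 2.31 CPM and saline females 2.94 and 3.95 CPM. Its groups overlapped in both sexes, and its log2 fold change was -0.45 ± 0.33 (edgeR, adjusted p 0.811), or -0.20 ± 0.30 without saline male replicate 3.

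Oxtr, the oxytocin receptor, had 0.791, 1.93 and 4.11 CPM (lowest, median and highest) in fentanyl males and 0.811, 2.21 and 10.1 CPM in saline males. Fentanyl females had 1.23 and 3.54 CPM and saline females 1.87 and 1.38 CPM. Apart from the 10.1 CPM of saline male replicate 3, the ranges were alike. Its log2 fold change was -0.37 ± 0.50 (edgeR, adjusted p 0.881), and it was 0.16 ± 0.42 (adjusted p 0.947) without that library.

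Avpr1a, the vasopressin V1a receptor, had the lowest log2 fold change of the 9 members. Fentanyl males had 0.288, 0.351 and 1.30 CPM (lowest, median and highest) and saline males 0.463, 0.645 and 4.60 CPM. Fentanyl females had 0.446 and 1.39 CPM and saline females 0.687 and 0.690 CPM. Of the 6 fentanyl males, 4 were below the lowest saline male, but fentanyl male replicate 1 at 1.30 CPM was above the median of the saline males, so the groups overlapped. Its log2 fold change was -0.84 ± 0.54, with a 95% interval of -1.99 to 0.31 (edgeR, adjusted p 0.778). The value rested on saline male replicate 1, which had 67 reads of Avpr1a, and without it the value was -0.14 ± 0.37 (adjusted p 0.908).

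**Figure D2:**
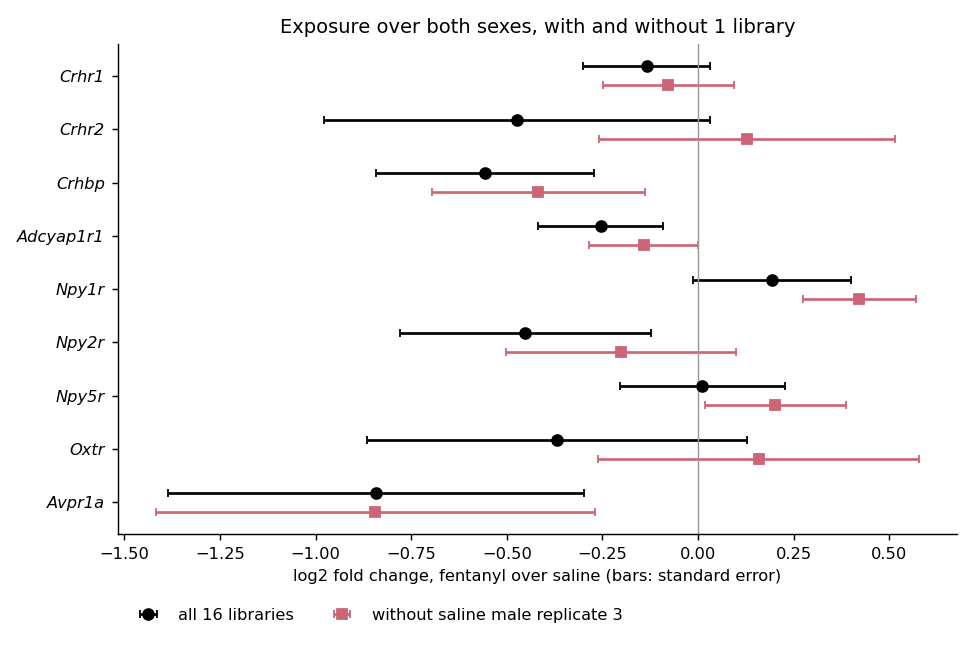
Log2 fold change of fentanyl over saline in both sexes together for the 9 members tested (x axis; bars are standard errors), from all 16 libraries (circles) and without saline male replicate 3 (squares). Crhr2 and Oxtr cross from -0.47 and -0.37 to 0.13 and 0.16, Npy1r moves from 0.19 to 0.42, and Avpr1a stays at -0.84.

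The peptides that act on these receptors, their other receptors and their processing enzymes were read from a list of 17 genes, of which 16 were in the table and 8 passed the filter. None of the 8 was called over both sexes in edgeR, and 2 had a log2 fold change above 0 and 6 below, against 52.3% of all genes below 0. An unadjusted p below 0.05 was found for 2 of 8, against 7.27% of all genes. Without saline male replicate 3 it was found for 1 of 8, against 6.47% of all genes. Crh, the gene of CRF, was at 4.68 ± 2.75 CPM after fentanyl and 4.22 ± 5.50 CPM after saline (SD, n = 8 each), with a log2 fold change of 0.17 ± 0.60. Without saline male replicate 1 the saline mean of Crh was 2.36 ± 1.75 CPM (SD, n = 7) and the log2 fold change 0.93 ± 0.44 (edgeR, adjusted p 0.508). Npy, the ligand of the 3 NPY receptors, was at 40.1 ± 17.2 and 31.9 ± 11.9 CPM (SD, n = 8 each), which gave 0.33 ± 0.26 on the log2 scale. Neither passed the threshold. The smallest p-values belonged to Cd38, an ectoenzyme needed for oxytocin release, at -0.77 ± 0.31 (edgeR, adjusted p 0.609), and to Vipr2, a receptor for VIP and PACAP, at -0.43 ± 0.18 (edgeR, adjusted p 0.636). Oxt, the oxytocin gene, had 176 reads in saline male replicate 3 and 1 read in the other 15 libraries together. Ucn, Ucn2, Ucn3, Pyy, Npy4r, Avp and Dpp4 did not pass the filter.

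For comparison, 37 receptors for other neuropeptides were read in the same fit. Of these, 30 passed the filter, none was called, and 9 had a log2 fold change above 0 and 21 below, against 52.3% of all genes below 0. Their median was -0.12. Without saline male replicate 3, 17 of 29 were above 0 and the median was 0.10. The smallest p-value was that of Rxfp1, a relaxin receptor, at 0.52 ± 0.19 (edgeR, adjusted p 0.555).

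Within males, 6 against 6, none of the 9 members was called in edgeR, against 7 of all genes (0.0392%). At an unadjusted p below 0.05 there was 1 of 9 in edgeR, against 4.13% of all genes in edgeR. DESeq2 had 3 of 9 and limma voom none, and their own shares of all genes at that level are not given here. After adjustment DESeq2 called 43 and limma voom 84 of all genes in males, so the 3 of 9 cannot be set against the edgeR share. The member in edgeR was Crhbp, with a log2 fold change of -0.81 ± 0.31, an unadjusted p of 0.0196 and an adjusted p of 0.9998. Without saline male replicate 3 the value for Crhbp was -0.64 ± 0.32. Crhr2 at -1.05 ± 0.50 and Avpr1a at -1.28 ± 0.61 were larger but had wider errors, and they fell in size to -0.36 ± 0.39 without saline male replicate 3 and to -0.36 ± 0.44 without saline male replicate 1.

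Within females 2 libraries were set against 2, and the fit pooled their spread with that of the males. No member was called in edgeR, and no gene of the table was (0%), although 14.3% of all genes had an unadjusted p below 0.05 and DESeq2 called 20 genes, no member among them. Crhr2 had the largest change of the members, at 1.59 ± 0.94 (edgeR, adjusted p 0.417), with 16 and 26 reads in the fentanyl females and 6 and 6 in the saline females. The other 8 members lay between -0.30 ± 0.69 (Npy2r) and 0.55 ± 1.02 (Oxtr), so the 95% intervals in females were wide, for Oxtr from -1.61 to 2.71.

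The difference between the female and the male effect was tested as an interaction. None of the 9 members was called in edgeR, and no gene of the table was (0%), while DESeq2 called 4 genes and no member. Crhr2 had the smallest p, with a difference of 2.64 ± 1.07, an unadjusted p of 0.0252 and an adjusted p of 0.570 in edgeR, and 8.23% of all genes had an unadjusted p below 0.05. Between the sexes themselves, with exposure as a term, none of 9 was called, against 10 of all genes (0.056%). At an unadjusted p below 0.05 there was no member in edgeR or DESeq2, against 2.52% of all genes in edgeR. In limma voom there were 3 of 9, and its own share of all genes is not given here. Npy2r had 3.12 CPM on average in the 4 females and 5.04 CPM in the 12 males, a log2 difference of -0.68 ± 0.40 that did not pass. Oxtr, at -0.51 ± 0.59, and Avpr1a, at -0.02 ± 0.66, differed by less than their errors.

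**Figure D3:**
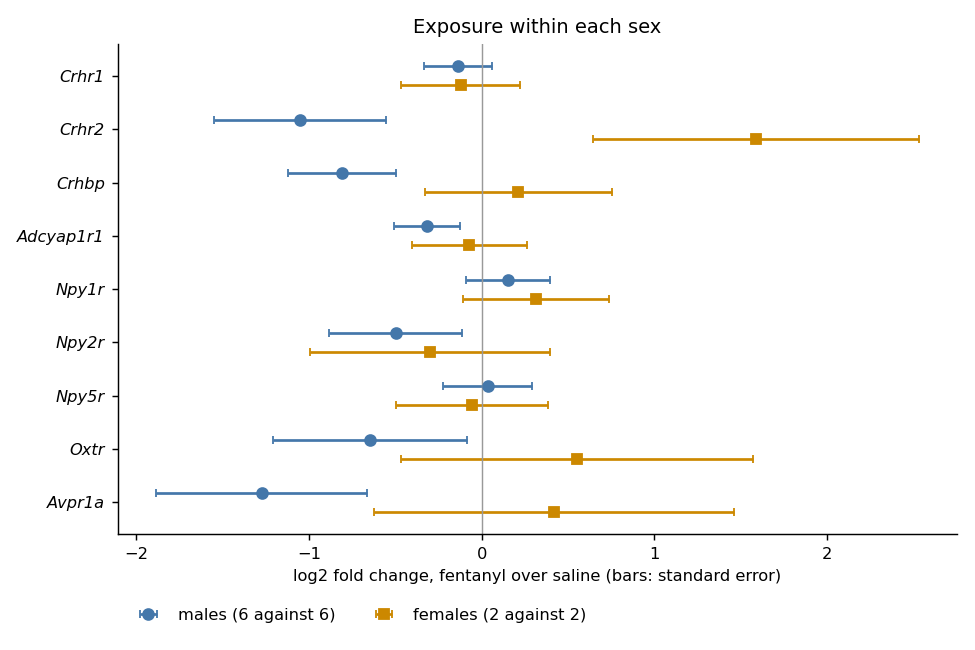
Log2 fold change of fentanyl over saline (x axis; bars are standard errors) within males and within females for the 9 members tested. The values of Crhr2, Crhbp, Oxtr and Avpr1a lie below 0 in males and above 0 in females, with female errors up to 1.04.

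Saline male replicate 3 had the highest level of all 16 libraries in 8 of the 10 members, or in 7 of the 9 tested, against 8.34% of all genes tested. In 3 of the 9 tested its level was at least 1.5 times that of the next library, against 1.10% of all genes. Its ratio to the median of the other 15 libraries was 17.7 for Adcyap1, 5.39 for Oxtr, 4.42 for Crhr2, 2.99 for Npy2r, 2.02 for Npy1r, 1.96 for Npy5r, 1.74 for Adcyap1r1 and 1.47 for Crhr1. The exceptions were Crhbp and Avpr1a, whose highest levels, 5.83 and 4.60 CPM, were both in saline male replicate 1. That library also held the highest level of Crh, at 17.2 CPM.

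The same library was highest in all 6 cortical and basolateral glutamatergic markers that passed the filter, in 6 of 10 central amygdala markers and in none of 17 striatal or 10 myelin markers. Among the receptors for other neuropeptides it was highest in 14 of 30. The central amygdala markers did not all go the same way in this library. Tac1, Pdyn, Meis2 and Isl1 were at 0.43, 0.65, 0.84 and 0.91 times the median of the other 15 libraries, and Tac1 was at its lowest level of all libraries. The part of these marker levels in the receptor levels was not tested.

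**Figure D4:**
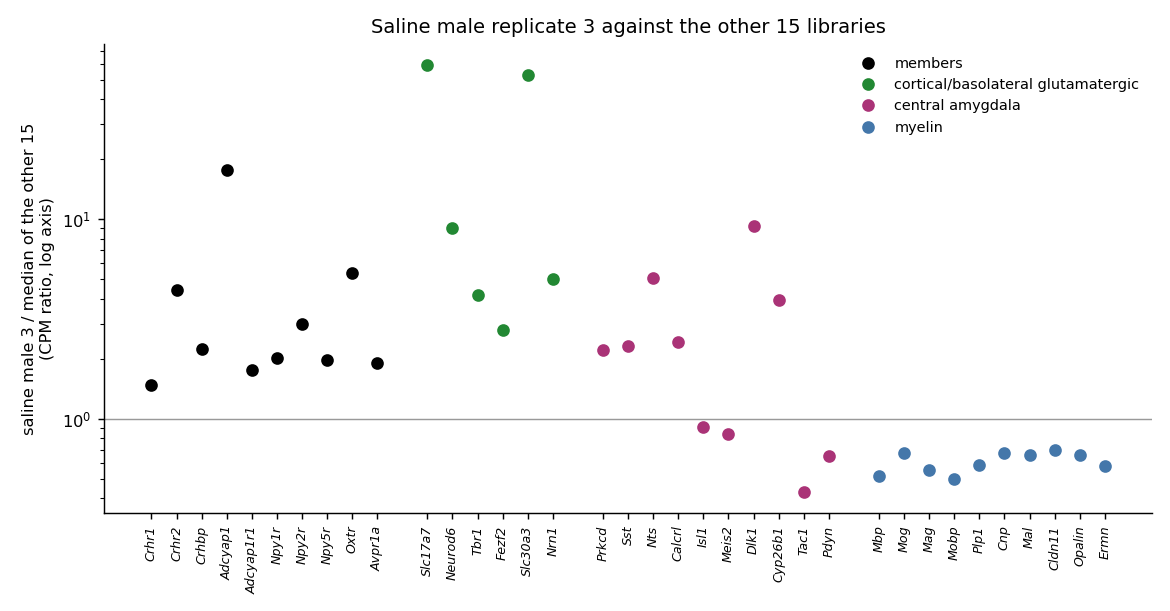
Ratio of the level in saline male replicate 3 to the median of the other 15 libraries (log axis) for the 10 members and for the markers of 3 cell populations that passed the filter on low counts. All 10 members lie above 1, from 1.47 for Crhr1 to 17.7 for Adcyap1. The 6 glutamatergic markers also lie above 1, and the myelin markers lie below 1. Of the central amygdala markers, Isl1, Meis2, Pdyn and Tac1 lie below 1, down to 0.43 for Tac1, and the others above 1.

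At the other end stood fentanyl male replicate 2. It had the lowest level of all libraries in Adcyap1r1, Npy2r, Oxtr and Avpr1a, and 7 of its 10 members were among the lowest 3 libraries. The share of all genes that were lowest in this library is not given here, so these counts cannot be called particular to the members. Its myelin markers summed to 34956 CPM, the highest of the 16 libraries, and its markers of GABAergic neurons to 891 CPM, the lowest. Its endothelial and mural markers summed to 329.9 CPM, against 218.7 CPM in the next library. The part of these marker levels in its receptor levels was not tested either.

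Fentanyl males carry the library numbers 1 to 6, whereas saline males carry 1, 2 and 9 to 12, and what the numbers stand for is not given in the sources used here. The saline males numbered 1 and 2 (replicates 1 and 2) were compared with those numbered 9 to 12 (replicates 3 to 6). In edgeR 1 of the 9 members was called, against 17.9% of all genes (9.66% lower). Crhr1 averaged 7.51 CPM in the first set and 13.1 CPM in the second, with no overlap, a log2 difference of -0.81 ± 0.23 (edgeR, adjusted p 0.0254). Absence of overlap was found in 44.8% of all genes in this comparison. All 17 striatal markers were called higher in the first set (median log2 difference 1.25). Called lower were 8 of 10 myelin markers (median of the list -1.40) and the 2 tested markers of thalamic and hypothalamic neurons (-2.08). The part of these marker levels in the Crhr1 difference was not tested. The call on Crhr1 was lost without saline male replicate 2 (-0.49 ± 0.27, adjusted p 0.328) and without saline male replicate 6 (-0.80 ± 0.25, adjusted p 0.0536). Avpr1a was higher on average in the first set, 2.53 against 0.730 CPM, but the difference of 1.73 ± 0.68 did not pass (edgeR, adjusted p 0.0911), except without saline male replicate 2 (2.61 ± 0.59, adjusted p 0.0490), and it was -0.67 without saline male replicate 1. Of the 8 ligands and partners tested, Vipr1 was called higher in the first set (1.00 ± 0.18, edgeR, adjusted p 0.00289), and Vipr2 (-0.89) and Cd38 (-1.26) lower. Of the 30 other neuropeptide receptors, 3 were called higher (Sstr2, Mchr1 and Mc4r) and 4 lower (Sstr1, Ntsr1, Ntsr2 and Hcrtr2). Because all fentanyl males carry numbers of 6 or lower and 4 of 6 saline males carry numbers of 9 or higher, the numbers and the exposure are partly confounded in males. Fentanyl females carry the numbers 1 and 2 and saline females 10 and 11, so in females the number set and the exposure cannot be told apart, which also touches the difference between the sexes. Against the saline males numbered 1 and 2 alone, the male log2 fold change of Crhr1 was 0.45, and against those numbered 9 to 12 alone it was -0.35 ± 0.15 (edgeR, adjusted p 0.310).

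Levels of the members were correlated across the 16 libraries, as log2 CPM, for all 45 pairs. Of these, 43 had a positive Pearson's r, and 6 had an adjusted p below the threshold for both Pearson's r and Spearman's rho (100000 permutations, two-sided, Benjamini-Hochberg over the 45 pairs). The count of 43 depended on saline male replicate 3. Without it several pairs turned negative, such as Adcyap1 with Oxtr (0.461 to -0.145) and Adcyap1r1 with Npy5r (0.083 to -0.317). The 6 pairs that passed kept an r of 0.553 (Npy2r with Oxtr) to 0.798 (Adcyap1r1 with Npy2r) without it. The share of positive r among pairs of all genes is not given here. Libraries share dissection and depth, so these values describe how the libraries vary and not the genes in single cells. The highest was Adcyap1r1 with Npy2r, with r 0.858 and rho 0.797 (permutation p 0.00013 and 0.00039, adjusted 0.00292 and 0.0175). For each pair, r was also taken without the 2 libraries farthest from the median of the gene named first. For this pair they were fentanyl male replicate 2 and saline male replicate 3, and r was 0.610 without them. It was 0.917 within the 8 fentanyl and 0.768 within the 8 saline libraries. Crhr2 and Oxtr had r 0.825 and rho 0.726 (permutation p 0.0001 and 0.00206, adjusted 0.00292 and 0.0306), with r 0.724 without the farthest 2. Npy1r and Npy5r had r 0.762 and rho 0.756 (permutation p 0.00071 and 0.00108, adjusted 0.0106 and 0.0243). Without the farthest 2, fentanyl female replicate 1 and saline male replicate 3, their r was 0.569. Crhr1 and Npy2r had r 0.705 and rho 0.694 (permutation p 0.00203 and 0.0034, adjusted 0.0228 and 0.0306), with r 0.657 without the farthest 2. Oxtr and Avpr1a had r 0.684 and rho 0.671 (permutation p 0.00372 and 0.00559, adjusted 0.0239 and 0.0419), with r 0.616 without the farthest 2. Npy2r and Oxtr had r 0.692 and rho 0.703 (permutation p 0.00307 and 0.00299, adjusted 0.0230 and 0.0306), with r 0.420 without the farthest 2. The last relation weakened without these 2 libraries, fentanyl male replicate 2 and saline male replicate 3. Its r was 0.692 within the fentanyl and 0.828 within the saline libraries, each of which holds 1 of the 2.

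Npy1r and Npy5r are neighbours on the genome, and their promoters are printed because the levels of the 2 genes went together across libraries. In the RefSeq promoter table of build GRCr8 (a newer build than that used for counting), the annotated starts lie 8668 bases apart on chromosome 16, with the genes pointing away from each other. The 250 bases before each start were searched on both strands for TGACG (the cyclic AMP response element half-site), TGACGTCA (the full element, which contains the half-site), GGGCGG (GC box), CCAAT and TATAAA. Capitals mark each match. The Npy1r window lies at chr16:27813388-27813637 on the minus strand and that of Npy5r at chr16:27821805-27822054 on the plus strand.
Npy1r: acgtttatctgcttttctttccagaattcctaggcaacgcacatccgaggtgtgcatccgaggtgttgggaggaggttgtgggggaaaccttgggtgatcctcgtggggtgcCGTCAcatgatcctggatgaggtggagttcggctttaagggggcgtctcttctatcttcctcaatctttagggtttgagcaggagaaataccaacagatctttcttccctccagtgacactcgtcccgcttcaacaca
Npy5r: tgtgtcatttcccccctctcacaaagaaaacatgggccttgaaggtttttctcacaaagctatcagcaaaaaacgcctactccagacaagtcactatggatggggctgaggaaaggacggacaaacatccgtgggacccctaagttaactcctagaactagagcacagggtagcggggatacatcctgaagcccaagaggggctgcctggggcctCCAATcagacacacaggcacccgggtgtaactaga
The Npy1r window held 1 half-site, read on the opposite strand 138 to 134 bases before the start. The Npy5r window held 1 CCAAT 35 to 31 bases before the start. They had no motif in common and a like GC content, 51.6% and 52.0%, near the median of 51.2% over all promoters of the table. TGACG occurs in 18.2% and CCAAT in 34.0% of the 33469 promoters of the table. A match is a description of the letters and not a bound site. On the log2 scale the ratio of Npy1r to Npy5r counts was 1.23 ± 0.239 after fentanyl and 1.05 ± 0.324 after saline (SD, n = 8 each), so the groups' ratios overlapped.

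The promoters of Adcyap1r1 and Npy2r, the pair with the highest r, are on different chromosomes and are shown for contrast. The Adcyap1r1 window lies at chr4:85923921-85924170 on the plus strand and that of Npy2r at chr2:170203101-170203350 on the minus strand, in the same build.
Adcyap1r1: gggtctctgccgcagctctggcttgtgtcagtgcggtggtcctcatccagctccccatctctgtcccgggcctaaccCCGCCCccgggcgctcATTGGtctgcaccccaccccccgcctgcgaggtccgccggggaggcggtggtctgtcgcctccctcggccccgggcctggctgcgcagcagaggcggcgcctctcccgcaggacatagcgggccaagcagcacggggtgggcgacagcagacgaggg
Npy2r: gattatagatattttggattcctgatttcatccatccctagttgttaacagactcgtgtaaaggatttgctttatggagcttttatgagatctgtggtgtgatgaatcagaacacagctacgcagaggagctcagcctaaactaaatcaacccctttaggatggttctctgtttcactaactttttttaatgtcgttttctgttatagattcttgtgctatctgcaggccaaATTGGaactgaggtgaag
The Adcyap1r1 window is rich in G and C (73.2%), and that of Npy2r is poor (38.8%). Both hold a CCAAT read on the opposite strand (ATTGG), 157 to 153 and 18 to 14 bases before the start, and the Adcyap1r1 window also holds a GC box at 173 to 168, a motif found in 30.5% of all promoters. The full element TGACGTCA, found in 1.59% of all promoters, was in none of the windows of the 10 members. TATAAA, found in 12.9%, was in those of Adcyap1 and Avpr1a. TGACG was in those of Crhbp, Crhr2, Npy1r, Oxtr and Avpr1a.

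Members were also correlated with the mean log2 CPM of 11 marker lists, 110 relations in all, of which 6 passed in both measures after adjustment over the 110. Crhr1 followed Slc17a6 and Tcf7l2, the 2 tested markers of thalamic and hypothalamic neurons, with r 0.874 and rho 0.888 (permutation p 3e-05 and 1e-05, the second being the smallest that the permutations can give, adjusted 0.00165 and 0.0011). Its r was 0.867 without the 2 libraries farthest from the median of the marker mean, 0.740 within fentanyl and 0.972 within saline libraries. The other genes of that list, Lhx9, Sim1, Otp, Hcrt and Pmch, did not pass the filter. They had 59, 5, 5, 14 and 0 reads in the 15 libraries other than saline male replicate 3 together. The list therefore rests on Slc17a6 and Tcf7l2 alone, and whether these reads came from thalamic or hypothalamic neurons was not tested. The list for GABAergic neurons, chosen for interneurons, held Gad1, Gad2, Slc32a1, Pvalb, Lhx6, Npy and Vip. Crhr1 was also higher where these markers were higher, with r 0.835 and rho 0.806 (permutation p 8e-05 and 0.00048, adjusted 0.00293 and 0.0125) and r 0.770 without the farthest 2. It was lower where striatal markers were higher, with r -0.747 and rho -0.818 (permutation p 0.00101 and 0.00023, adjusted 0.0139 and 0.00843) and r -0.658 without the farthest 2. Npy2r and the GABAergic markers had r 0.753 and rho 0.853 (permutation p 0.00071 and 6e-05, adjusted 0.0130 and 0.0033), with r 0.866 without the farthest 2. Npy2r and the thalamic and hypothalamic pair had r 0.705 and rho 0.738 (permutation p 0.00193 and 0.00155, adjusted 0.0236 and 0.0284), with r 0.830 without the farthest 2. Oxtr followed the 10 central amygdala markers, with r 0.862 and rho 0.782 (permutation p 2e-05 and 0.00057, adjusted 0.00165 and 0.0125), and r was 0.720 without the farthest 2, 0.913 within fentanyl and 0.856 within saline libraries. Adcyap1 and the glutamatergic markers had r 0.875 and rho 0.500 (permutation p 0.00619 and 0.0517, adjusted 0.0458 and 0.203), and r was 0.319 without the farthest 2 libraries, fentanyl female replicate 2 and saline male replicate 3. Without saline male replicate 3 alone it was 0.359, so the relation rested on that library.

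**Figure D5:**
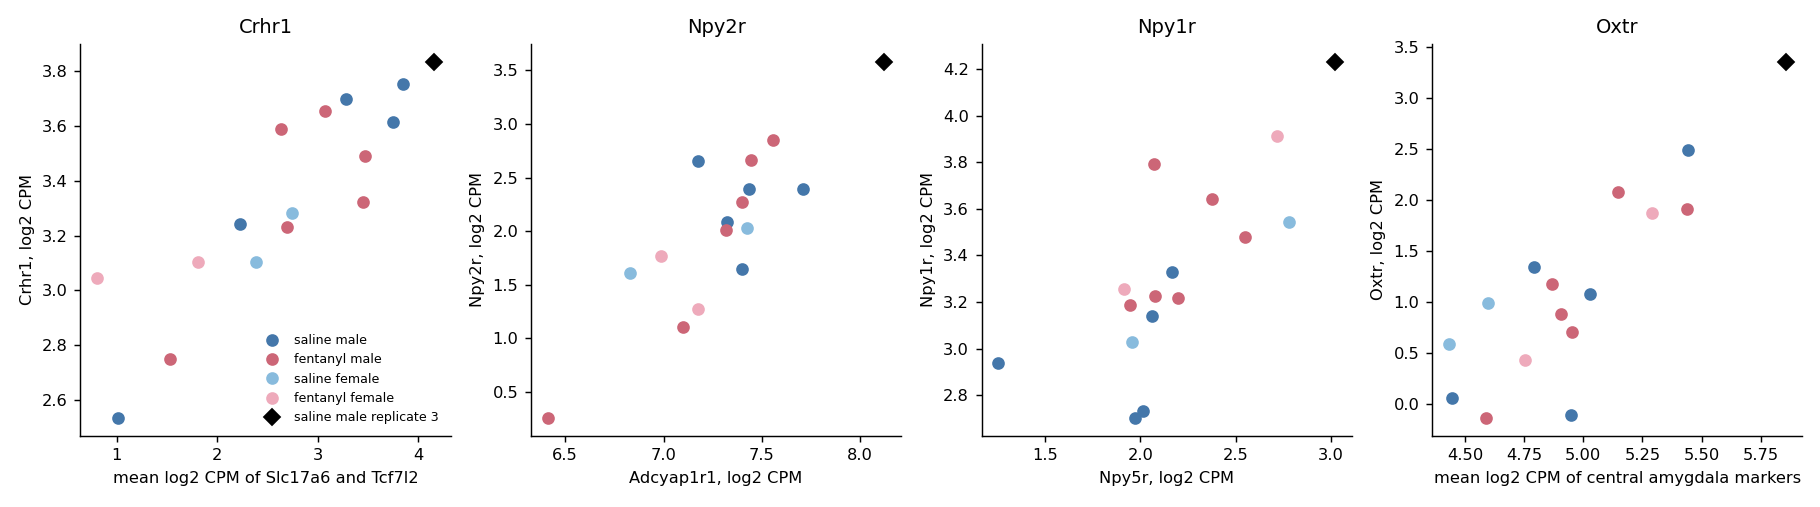
Each point is a library, coloured by group, with saline male replicate 3 as a diamond, and all axes are log2 CPM. Crhr1 rises with the mean of Slc17a6 and Tcf7l2 (r 0.874), Npy2r with Adcyap1r1 (r 0.858), Npy1r with Npy5r (r 0.762) and Oxtr with the mean of the central amygdala markers (r 0.862).

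Among all genes tested, those with the highest Pearson's r to each member over the 16 libraries were taken as its nearest. Crhr1 was nearest to Arl4c (r 0.953, and 0.946 without saline male replicate 3) and Npy2r to Tbc1d24 (0.968, then 0.960). Adcyap1r1 was nearest to Tub (0.956, then 0.935), Oxtr to Unc5d (0.929, then 0.887) and Crhr2 to Lrfn2 among genes with a full name (0.887, then 0.779). Crhbp was nearest to Zmym1 (0.881, then 0.843), Avpr1a to Cachd1 (0.873, then 0.868), Npy1r to Grm8 (0.814, then 0.811) and Npy5r to Bend5 (0.808, then 0.729). For Adcyap1 the nearest gene was Slc17a7, with r 0.849 over all libraries and 0.230 without saline male replicate 3. Npy1r and Npy5r thus had looser nearest neighbours than Npy2r, Adcyap1r1 and Crhr1, whose nearest genes kept an r above 0.93 without that library.

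Without saline male replicate 3, the coefficient of variation of Adcyap1r1 over the other 15 libraries was 19.97%, against 1.98% from counting alone. That of Crhr1 was 23.1% against 7.81%, that of Oxtr 61.3% against 16.5%, that of Crhr2 50.3% against 28.0% and that of Avpr1a 122% against 26.6%, or 54.9% when saline male replicate 1 was left out as well. The counting values give the precision that the reads allow for each level.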

How the data were processed

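Poly(A) RNA from 16 samples was sequenced, after Trizol extraction and NEBNext library preparation, per the labels' protocols. Trimmomatic, STAR, HTSeq and DESeq2 with build rn7 are named in the submitters' processing notes, with no versions. Annotation and strand setting were not given in the sources used here. Without strand, a gene and its antisense partner could share reads. The deposited values are whole-number read counts per gene with no normalization, for 33294 genes. Every row named a gene.

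The 10 members and the 14 gene lists were chosen with earlier results of these data known. Counts were analysed with edgeR 4.0.16 in R 4.3.3: filterByExpr (17856 genes kept, minimum 0.603 CPM), TMM factors, robust quasi-likelihood fits, and Benjamini-Hochberg adjustment over all genes tested, at 0.05. Effects within 1 sex came from a 4-group fit, in which females and males share 1 estimate of spread. Standard errors were derived from the log2 fold change and its F statistic. CPM are counts scaled with TMM factors, and log2 CPM used a prior count of 2. DESeq2 1.42.0 and limma 3.58.1 (voom) were alternatives, with other scaling, filters, covariates, library subsets and a replicate block. Correlations used 100000 permutations. All members were named. From the ligand list, detected genes could be named with their level, and from each other list those past the threshold or the smallest p. The nearest genes were those with the highest Pearson's r. The steps were tested on simulated counts. No 2 libraries agreed within sampling noise (120 pairs, chi-square per gene at least 4.08). Total counts were 12879701 to 22426428 per library. Promoter sequences came from RefSeq's table of build GRCr8.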

Additional observations from a re-analysis of the deposited data

Results flagged for a closer look

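Within each male group of 6, 51 combinations of gene and group were examined for a library whose gap to its neighbour took up most of the group's range, for the members and for their ligands and partners. Chance flags about 1 in 20 such groups where values are normally distributed and independent. A group with a single read is flagged by construction, as for Ucn3 in saline males and Oxt in fentanyl males. Low counts are also skewed and genes share libraries, so the number flagged cannot be set against that rate. In all, 14 values stood out, 7 of them in saline male replicate 3.

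Among the members, saline male replicate 3 stood far above the other saline males in Crhr2 (3.94 CPM), Adcyap1 (5.75 CPM), Npy1r (18.7 CPM), Npy2r (11.8 CPM) and Npy5r (8.01 CPM). Among the ligands it stood apart in Vip (3.10 CPM) and in Oxt (7.38 CPM). Avpr1a stood apart in saline male replicate 1, at 4.60 CPM, and in fentanyl male replicate 1, at 1.30 CPM. Saline male replicate 1 also stood apart in Crh, at 17.2 CPM.

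The remaining values were in partners with low counts. Fentanyl male replicate 2 was far from its group in Ucn2 (0.288 CPM), Oxt (0.0719 CPM, 1 read) and Avpr2 (1.58 CPM, low). Saline male replicate 5 was the only saline male with a read of Ucn3 (0.0544 CPM, 1 read).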

How the results depend on the processing

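No member was called over both sexes, in males, in females, in the difference between the sexes or between the sexes under any alternative run. The smallest adjusted p was 0.0935 over both sexes (Npy1r, edgeR, without saline males numbered 1 and 2 and saline male replicate 3 together, a setting chosen after seeing the data) and 0.0852 in males (Avpr1a, edgeR, without saline males numbered 9 to 12). Counts of all genes called moved more. Over both sexes they were 14, but 87 with DESeq2, 1006 with limma voom, 1226 without saline males numbered 1 and 2, 4 without those numbered 9 to 12, 2471 in the joint setting and 9 to 29 leaving out 1 library at a time. In males they were 7, then 43, 84, 71, 955, 33 and 4 to 9 in the same order. In females and in the difference between the sexes they were 0, then 20 and 4 with DESeq2 and 0 to 5 in both leaving out 1 library. Between saline males by number they were 3201, then 5701 with limma voom and 193 to 4229 leaving out 1 library, where members called were 1, and 0 to 1.

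Directions of values that did not pass changed as follows. Over both sexes, Oxtr was 0.13 with limma voom, Npy5r was -0.12 without saline males numbered 1 and 2, and Crhr1 and Crhr2 were 0.21 and 0.54 without those numbered 9 to 12. In the joint setting Crhr2, Oxtr and Avpr1a were 0.14, 0.46 and 0.064. With striatal and myelin covariates Crhr1, Crhr2, Npy2r and Oxtr were 0.26, 0.90, 0.31 and 0.84, and with the glutamatergic covariate Crhr2 and Oxtr were 0.12 and 0.11. In males, Oxtr was 0.13 with limma voom and 0.41 in the joint setting, Npy5r -0.15 without numbers 1 and 2, and Crhr1 and Npy2r 0.45 and 0.044 without numbers 9 to 12. In the difference between the sexes Npy2r was -0.050 with limma voom. Between the sexes Avpr1a was 0.024 with DESeq2 and 0.059 with limma voom, and Crhbp 0.14 with limma voom. By number, Adcyap1r1 was -0.0019 with RLE factors and -0.0014 with DESeq2, and Oxtr 0.012 with limma voom. The cause was not tested.

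Leaving out 1 library at a time, values that crossed 0 ranged over both sexes from -0.68 to 0.13 (Crhr2), -0.084 to 0.20 (Npy5r) and -0.61 to 0.16 (Oxtr), and Adcyap1 without a filter turned from -1.23 to 0.37 without saline male replicate 3, a setting added after seeing the data. In males they ranged from -0.094 to 0.30 (Npy5r) and -0.90 to 0.021 (Oxtr). In females they ranged from -0.34 to 0.25 (Adcyap1r1), -0.62 to 1.01 (Avpr1a), -0.29 to 0.97 (Crhbp), -0.052 to 0.61 (Npy1r), -0.52 to 0.42 (Npy5r) and -0.41 to 1.12 (Oxtr). In the difference between the sexes they ranged from -0.026 to 0.57 (Adcyap1r1), -0.078 to 0.15 (Crhr1), -0.20 to 0.46 (Npy1r), -0.13 to 0.43 (Npy2r) and -0.56 to 0.39 (Npy5r). Between the sexes they ranged from -0.70 to 0.42 (Avpr1a), -0.31 to 0.17 (Crhbp), -0.89 to 0.033 (Crhr2) and -0.053 to 0.25 (Npy1r). By number they ranged from -0.16 to 0.24 (Adcyap1r1), -0.67 to 2.61 (Avpr1a), -0.22 to 0.97 (Crhbp), -0.53 to 0.088 (Npy1r) and -2.27 to 0.79 (Oxtr).

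The replicate number as a block called 2 genes over both sexes and 3 in males (males alone, where Avpr1a fell below the filter), and no member. Deviations of same-numbered males correlated at -0.07 to 0.21, and not every male library correlated best with its own number, so the males share only a number. With 2 libraries a group, both female pairs give 1 and the same value by construction (-0.17), which bears little on the pairing.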
